A study of Mus musculus with 2 samples.

Results

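The Ikaros family of zinc finger transcription factors (Ikzf1 to Ikzf5), the repressors Gfi1 and Gfi1b, and the corepressor genes Kdm1a and Rcor1 were examined in progenitors of group 2 innate lymphoid cells (ILC2). These 9 genes were taken by symbol from the 27179 genes of the deposited tables, and all 9 were found. RNA sequencing covered 1 group of 2 libraries, called pool 1 and pool 2, each made from ILC2 progenitors that were sorted by flow cytometry from the marrow of 8 C57BL/6 mice aged 8 weeks. The mice were wild type, no treatment is named in the labels, and the data hold no second condition or cell type, which leaves comparisons of genes within the cells and of one pool with the other. Neither the sorting antibodies nor the sex of the animals is stated. The heading inside each file carries the code of the other sample (0 of 2 headings matched). Files were assigned as deposited, and if the headings are right, the names pool 1 and pool 2 are exchanged throughout.

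Ikaros proteins bind DNA through zinc fingers near the amino end and pair with each other through fingers at the carboxyl end. They can recruit the NuRD, Sin3 and CtBP corepressors, and they shape lymphocyte development from early progenitors onward. Gfi1 and its close relative Gfi1b repress genes through a short amino-terminal stretch, the SNAG domain, which binds the histone demethylase LSD1 (the product of Kdm1a) and with it the scaffold CoREST (the product of Rcor1). In mice, Gfi1 is required for ILC2 development and for neutrophil formation, whereas Gfi1b is required for red cells and megakaryocytes.

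Gfi1 and Gfi1b recognise the same DNA core, AATC, and are known to repress their own and each other's genes. The windows around their start sites are therefore shown, from 250 bases before to 50 bases after each annotated start (RefSeq, GRCm38.p6, 5′ to 3′ on the gene's strand, which is the minus strand for both). Capitals mark AATC or its reverse complement GATT.
Gfi1b, chr2:28621933-28622232: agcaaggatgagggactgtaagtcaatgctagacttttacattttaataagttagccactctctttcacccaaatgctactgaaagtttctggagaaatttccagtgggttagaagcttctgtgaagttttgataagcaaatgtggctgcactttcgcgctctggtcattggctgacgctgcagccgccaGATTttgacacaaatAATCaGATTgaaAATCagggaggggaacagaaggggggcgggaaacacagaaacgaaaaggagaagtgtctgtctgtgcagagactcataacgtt
Gfi1, upstream start, chr5:107725756-107726055: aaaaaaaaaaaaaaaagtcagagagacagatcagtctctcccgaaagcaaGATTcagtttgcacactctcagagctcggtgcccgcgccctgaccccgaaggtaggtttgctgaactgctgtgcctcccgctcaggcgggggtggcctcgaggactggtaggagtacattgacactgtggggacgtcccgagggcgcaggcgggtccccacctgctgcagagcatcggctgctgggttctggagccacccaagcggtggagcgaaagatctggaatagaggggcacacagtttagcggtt
The Gfi1b window holds 4 cores on either strand, at positions -60, -45, -40 and -33 from the start site. Of all 32851 promoter windows of this length, 10.1% hold 4 or more and 73.11% hold at least 1. The upstream Gfi1 window holds 1 core, at -200, and the window of the second annotated Gfi1 start holds 0. A match of these letters describes the sequence only.

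Values are read counts scaled by gene length and library size (RPKM), as the authors deposited them. The depth read back from the steps between the values was 20216146 reads in pool 1 and 19834586 in pool 2 (chosen among multiples by annotated gene lengths), so that 3 reads on 1 kb of exon correspond to 0.148 RPKM in pool 1 and 0.151 RPKM in pool 2. Detection meant a value of at least 1 RPKM in each pool, which 11013 genes reached (40.5% of all). All 10 listed ILC2 markers were detected, with Thy1 highest by mean at 558 RPKM in pool 1 and 510 RPKM in pool 2 and Rora lowest at 56.0 and 51.3 RPKM. Of the 10, 1 was at least 1.5-fold higher in pool 1 (Id2, 2.48-fold) and 1 in pool 2 (Il1rl1, 1.51-fold). Among all detected genes these shares were 2.6% and 5.86%. Nothing in the labels says more about how the pools differ, and with 1 library a side no test between them has a replicate check. Ratios are pool 1 over pool 2, and intervals of read ratios are exact 95% intervals that cover counting error only. The SD beside a mean is over both pools.

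The 9 genes spanned most of the range of detected genes, from Ikzf1, above 96.2% of them, to Gfi1b, whose mean lay above 4.40%. Their order was the same in both pools, Ikzf1, Ikzf3, Gfi1, Kdm1a, Rcor1, Ikzf2, Ikzf5, Ikzf4 and Gfi1b from high to low, and for none of the 8 pairs of neighbours did the ranges of the 2 pools overlap. Of the 9, 8 were detected, and Gfi1b passed 1 RPKM in pool 2 only. The narrowest gaps between neighbours were 1.11-fold for Ikzf4 over Gfi1b and 1.18-fold for Ikzf1 over Ikzf3, both in pool 2. These levels are per length. In counts per library size (CPM), which do not divide by length, Ikzf2 was at 140 in pool 1 and 109 in pool 2, above Kdm1a (88.2 and 91.0) and Rcor1 (64.5 and 69.0) in both pools and above Gfi1 in pool 1 (100.1, against 137 in pool 2).

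**Figure D1:**
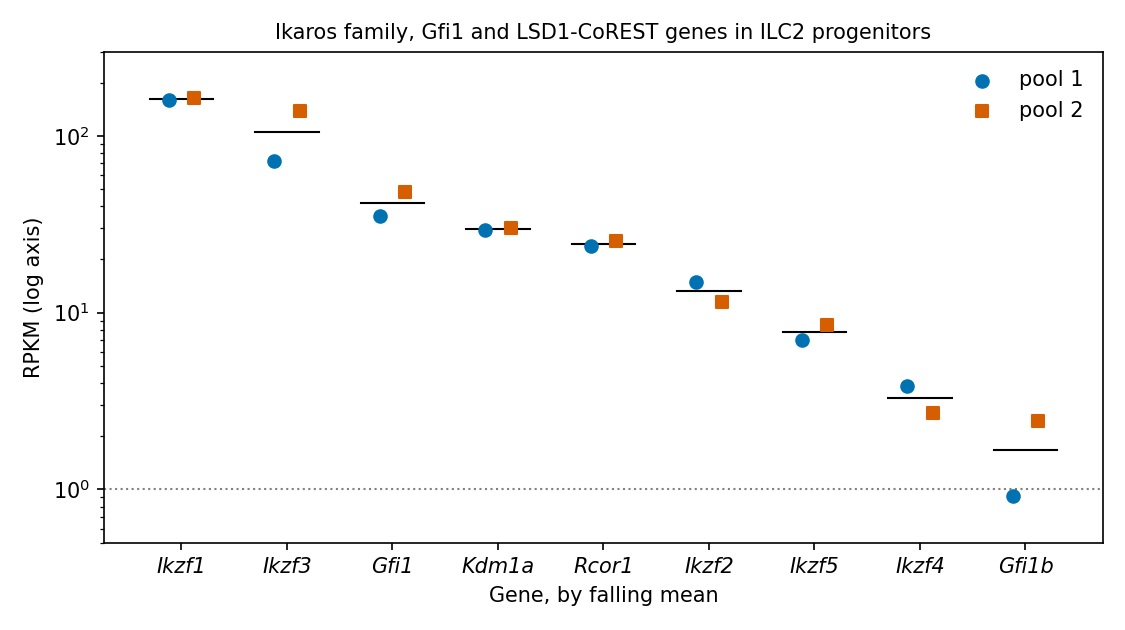
RPKM (log axis) of the 9 genes in pool 1 (circles) and pool 2 (squares), with the mean as a bar and the 1 RPKM threshold dotted. Levels run from 161 RPKM on average for Ikzf1 to 1.68 RPKM for Gfi1b, and the pools lie farthest apart for Gfi1b and Ikzf3.

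Ikzf1, which encodes Ikaros, the founding member of the family, was the most abundant of the set. It stood at 159 RPKM in pool 1 and 163 RPKM in pool 2 (mean 161 ± 3.18, SD, n = 2), on chromosome 11 from 11684962 to 11772930 (mm10, plus strand). It ranked 418th of all genes by mean level. The pools were close, with 16548 reads in pool 1 and 16696 in pool 2 and a ratio of 0.972 (95% counting interval 0.952 to 0.994).

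Ikzf3, which encodes Aiolos, a family member best known from B cells and NK cells, was next and differed between the pools. It stood at 71.7 RPKM in pool 1 and 138 RPKM in pool 2 (mean 105 ± 47.2), on chromosome 11 from 98464610 to 98546031 on the minus strand. The read ratio was 0.518 (interval 0.502 to 0.535), or 1.93-fold higher in pool 2, on at least 5943 reads in pool 1 and 11252 in pool 2. Ikzf1 therefore exceeded Ikzf3 by 2.21-fold within pool 1 and by 1.18-fold within pool 2.

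Ikzf2, which encodes Helios, a factor of regulatory T cells and of some innate lymphoid cells, was at 14.9 RPKM in pool 1 and 11.5 RPKM in pool 2 (mean 13.2 ± 2.38; chromosome 1, 69531207 to 69687351, minus strand). Its read ratio was 1.29 (interval 1.22 to 1.37), opposite in direction to that of Ikzf3. Ikzf4, which encodes Eos, a partner of Foxp3 in mouse regulatory T cells, was at 3.85 RPKM in pool 1 and 2.70 RPKM in pool 2 (mean 3.28 ± 0.814; chromosome 10, 128630839 to 128669671, minus strand), with a read ratio of 1.43 (interval 1.18 to 1.72). Helios and Eos transcripts were thus both higher in pool 1, each by under 1.5-fold, and Ikzf2 exceeded Ikzf4 by 3.86-fold in pool 1 and 4.26-fold in pool 2.

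Ikzf5, which encodes Pegasus, the most divergent family member, was at 7.02 RPKM in pool 1 and 8.56 RPKM in pool 2 (mean 7.79 ± 1.09; chromosome 7, 131388649 to 131410518, minus strand), with a read ratio of 0.820 (interval 0.736 to 0.914). Its exons share 4652 bases in the GENCODE annotation, over all transcripts, with those of Pstk on the opposite strand. This is more than the length of 4390 bases fitted to the deposited values, so the overlap within the counted exons is not known. Pstk stood at 23.2 RPKM in pool 1 and 22.3 RPKM in pool 2, and whether the counting used strand is not given, so the level of Ikzf5 is uncertain. The exonic overlap of the other members with any other gene was at most 144 bases.

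Within the family, Ikzf1 and Ikzf3 made up most of the transcripts. Of the summed RPKM of the 5 Ikaros genes, 256 in pool 1 and 324 in pool 2, Ikzf1 held 61.9% in pool 1 and 50.3% in pool 2, and Ikzf3 held 28.0% and 42.7%. Ikzf2 held 5.82% in pool 1 and 3.56% in pool 2, Ikzf5 2.74% and 2.64%, and Ikzf4 1.51% and 0.834%. As shares of CPM from the recovered reads, Ikzf2 stood at 10.8% in pool 1 and 6.94% in pool 2, and Ikzf1 at 63.1% and 53.8%. The reads of Ikzf3 and Ikzf4 are lower bounds. These CPM shares of Ikzf1 and Ikzf2 are therefore upper bounds, and whether Ikzf1 is first in CPM is not settled.

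**Figure D2:**
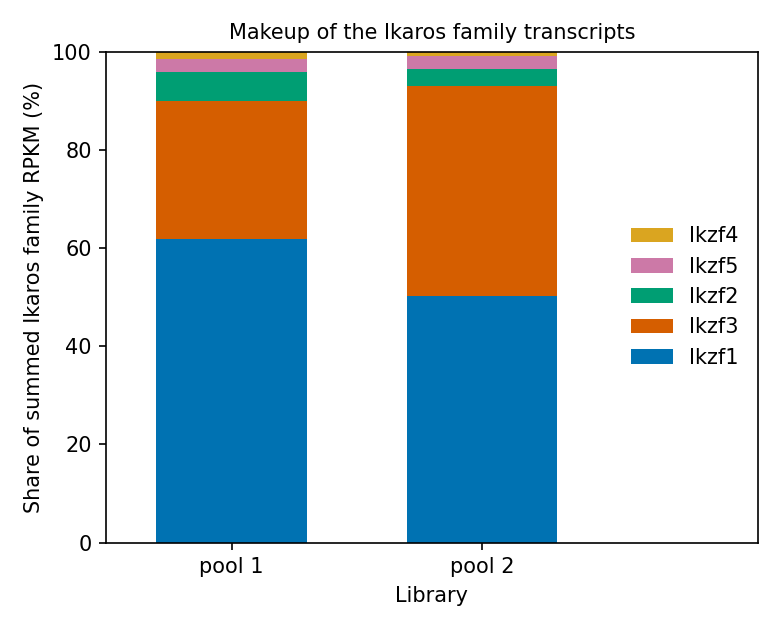
Stacked bars give the share (%) of the summed Ikaros family RPKM held by each of the 5 genes in pool 1 and pool 2. Ikzf1 held 61.9% in pool 1 and 50.3% in pool 2, and Ikzf3 28.0% and 42.7%.

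Gfi1 far exceeded its relative Gfi1b. Gfi1 was at 35.0 RPKM in pool 1 and 47.9 RPKM in pool 2 (mean 41.4 ± 9.15; chromosome 5, 107716655 to 107725805), above 79.4% of the detected genes. Gfi1b was at 0.923 RPKM in pool 1 and 2.44 RPKM in pool 2 (mean 1.68 ± 1.07; chromosome 2, 28609450 to 28621982), which rests on 34 and 88 reads. The ratio of Gfi1 to Gfi1b was 37.9 within pool 1 and 19.7 within pool 2, a mean of 4.67 ± 0.61 on the log2 scale with 0.1 RPKM added to each value.

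Both repressors were higher in pool 2. For Gfi1 the read ratio was 0.730 (interval 0.689 to 0.774), or 1.37-fold higher in pool 2. For Gfi1b it was 0.379 (interval 0.247 to 0.569), or 2.64-fold higher in pool 2. On a log scale, Gfi1b had the widest interval of the 9.

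The 2 corepressor genes lay close together and differed least between the pools beside Ikzf1. Kdm1a, whose product LSD1 removes methyl groups from histone tails, was at 29.3 RPKM in pool 1 and 30.2 RPKM in pool 2 (mean 29.7 ± 0.646; chromosome 4, 136550533 to 136602787, minus strand). Rcor1, whose product CoREST tethers LSD1 to nucleosomes, was at 23.7 RPKM in pool 1 and 25.3 RPKM in pool 2 (mean 24.5 ± 1.17; chromosome 12, 111039367 to 111115902, plus strand). Kdm1a exceeded Rcor1 by 1.24-fold in pool 1 and 1.19-fold in pool 2. The read ratios between the pools were 0.970 (interval 0.908 to 1.04) for Kdm1a and 0.935 (interval 0.866 to 1.01) for Rcor1, and both intervals include 1.

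Across the set, 1 of the 8 detected members, Ikzf3, was at least 1.5-fold apart between the pools, against 8.45% of the 11013 detected genes. A difference as large as that of Ikzf3 was seen in 2.93% of the detected genes in either direction. Of the 8, 6 were higher in pool 2 and 2 in pool 1, against 57.3% of all detected genes higher in pool 2. The split became 4 and 4 when the median ratio of detected genes was set to 0, since Ikzf1 and Kdm1a differed so little. The median log2 ratio of the 8 was -0.07, beside -0.04 over all detected genes. Gfi1b, under 1 RPKM in pool 1, is outside these counts; among the 17233 genes above 0 in either pool, 20.8% were at least 1.5-fold apart.

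**Figure D3:**
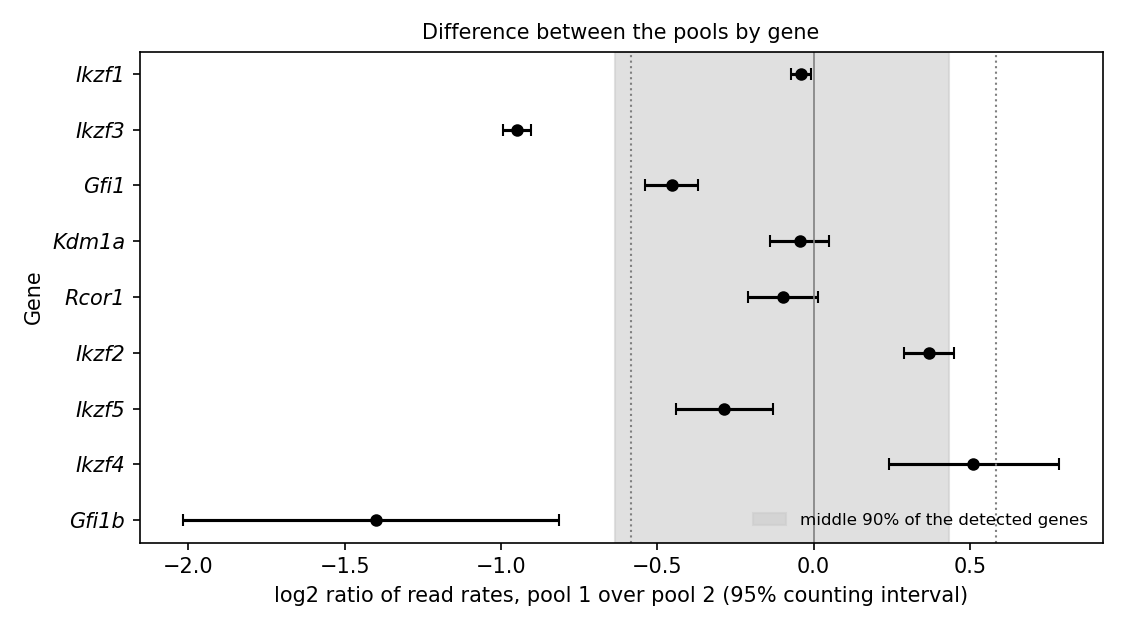
Log2 ratio of read rates, pool 1 over pool 2, for each gene with its exact 95% counting interval. The grey band holds the middle 90% of the detected genes (-0.64 to 0.43), dotted lines mark 1.5-fold, Ikzf3 and Gfi1b lie to the left of the band, and Ikzf4 lies to its right.

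Other subunits and relatives of the LSD1-CoREST complex were present. Of 11 listed genes, 11 were detected, beside 40.5% of all genes, and 0 were at least 1.5-fold apart between the pools, beside 8.45% of the detected genes, with a median level of 15.1 RPKM beside 14.6 RPKM over all detected genes. The deacetylase gene Hdac2 was highest, at 66.1 RPKM in pool 1 and 63.0 RPKM in pool 2. The second deacetylase gene of the complex, Hdac1, was at 19.4 RPKM in pool 1 and 22.4 RPKM in pool 2. The CoREST relative Rcor2 was lowest, at 3.19 RPKM in pool 1 and 3.36 RPKM in pool 2, so Rcor1 was the highest of the 3 CoREST genes (Rcor3 was at 14.0 and 13.0 RPKM). Kdm1b, the second LSD-type demethylase gene, was at 9.17 RPKM in pool 1 and 10.5 RPKM in pool 2, below Kdm1a in both.

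Other SNAG-domain repressors were mostly under 1 RPKM. Of 7 listed, 1 was detected, beside 40.5% of all genes. It was Snai3, a relative of Snail, at 1.81 RPKM in pool 1 and 4.41 RPKM in pool 2, or 2.44-fold higher in pool 2. Snai1 was at 0.903 RPKM in pool 1 and 0.349 RPKM in pool 2, Snai2 at 0.172 and 0.0501 RPKM, and Scrt2 and Insm2 were listed at 0. Gfi1 was therefore the highest SNAG gene of the 9 compared, Gfi1b included.

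Among proteins known to bind Gfi1, the histone methyltransferase gene Ehmt2 was at 88.6 RPKM in pool 1 and 91.7 RPKM in pool 2, Pias3, a SUMO ligase family gene, at 13.6 and 13.2 RPKM, and Zbtb17, which encodes the factor Miz1, at 7.53 and 7.38 RPKM. These were the 3 detected of 6, a share near the 40.5% of all genes. Runx1t1, which encodes the corepressor ETO, was lowest by mean, at 0.373 RPKM in pool 1 and 0.0950 RPKM in pool 2. Its relative Cbfa2t3, a corepressor gene of erythroid cells and megakaryocytes named after its values were seen, was at 0.124 RPKM in pool 1 and 0.468 RPKM in pool 2.

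Corepressor partners of Ikaros were abundant. All 15 listed genes were detected, 14 of them with a mean of at least 10 RPKM, and 0 were at least 1.5-fold apart, beside 40.5% of all genes detected and 8.45% of those apart. Ctbp1 was highest at 150 RPKM in pool 1 and 143 RPKM in pool 2, followed by the NuRD subunit genes Mta2 at 131 and 144 RPKM and Rbbp7 at 110 and 119 RPKM. Ctbp2 was lowest, at 2.14 RPKM in pool 1 and 1.70 RPKM in pool 2. The median level of the list was 62.7 RPKM.

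Genes of Ikaros protein turnover and phosphorylation were likewise all detected (8 of 8), with 0 at least 1.5-fold apart, beside the same shares of 40.5% and 8.45%. They comprise the cereblon ubiquitin ligase, which degrades Ikaros and Aiolos in human cells treated with thalidomide analogues, and casein kinase 2, which phosphorylates Ikaros. Ddb1 was at 147 RPKM in pool 1 and 153 RPKM in pool 2, the kinase subunit gene Csnk2b at 131 and 134 RPKM, Rbx1 at 25.4 and 25.7 RPKM, and the catalytic subunit gene Csnk2a2 was lowest at 12.2 and 11.3 RPKM. Crbn, the gene of cereblon itself (named after its values were seen), was at 18.5 RPKM in pool 1 and 24.9 RPKM in pool 2. It differed most of the 8, by 1.35-fold.

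**Figure D4:**
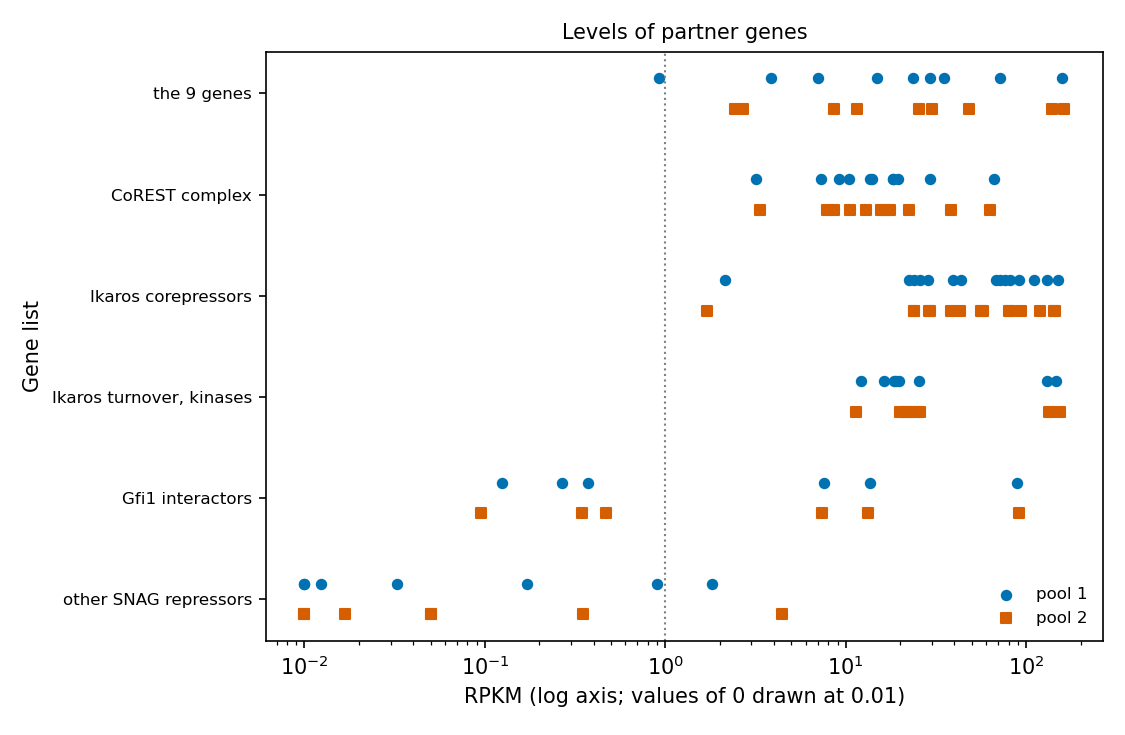
RPKM (log axis) of each gene in 6 lists, with pool 1 as circles and pool 2 as squares just below; values of 0 are drawn at 0.01 and the dotted line marks 1 RPKM. All corepressor, CoREST and turnover genes lie to the right of 1 RPKM, whereas 1 of 7 other SNAG repressors does in both pools.

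Genes reported elsewhere as targets of Gfi1 varied among themselves. Of 16 listed, 11 were detected, beside 40.5% of all genes. Of the 11, 2 were at least 1.5-fold higher in pool 1 and 3 in pool 2, against 2.6% and 5.86% of all detected genes. Id2, which encodes an inhibitor of E proteins, was at 709.7 RPKM in pool 1 and 287 RPKM in pool 2, and the cell cycle inhibitor gene Cdkn1a was at 16.7 and 4.28 RPKM. The IL-33 receptor gene Il1rl1 was at 173 RPKM in pool 1 and 262 RPKM in pool 2, and the neutrophil elastase gene Elane at 45.0 and 70.6 RPKM. Il17a was lowest, at 0 in pool 1 and 0.0431 RPKM in pool 2. The median log2 ratio of the 11 was -0.09.

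Genes reported as targets of Ikaros covered a wide range. Of 12 listed, 5 were detected, a share near the 40.5% of all genes, with the IL-7 receptor gene Il7r at 356 RPKM in pool 1 and 466 RPKM in pool 2 and the regulatory T cell factor gene Foxp3 at 32.5 and 27.0 RPKM. The Notch target gene Hes1 was 3.36-fold higher in pool 1, at 10.2 RPKM against 3.02 RPKM in pool 2. Tbx21, which encodes T-bet, was 2.36-fold higher in pool 2, at 1.67 RPKM in pool 1 and 3.93 RPKM in pool 2. Dntt, which encodes the terminal transferase of early lymphoid cells, was at 0.604 RPKM in pool 1 and 3.88 RPKM in pool 2 (named after its values were seen), and Cd8a was listed at 0 in both pools.

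Several markers of other cell types were also present and moved with the pools. In bulk RNA, fewer cells of a type and less RNA per cell cannot be told apart. The counts of markers higher in pool 2 stand beside 57.3% of all detected genes that were higher there, and 5.86% of all detected genes that were so by at least 1.5-fold. Some of these counts include genes under 1 RPKM. Among the 17233 genes above 0 in either pool, 9820 were higher in pool 2. The erythroid and megakaryocyte list, the lineages in which Gfi1b is known to act, summed to 22.6 RPKM in pool 1 and 40.1 RPKM in pool 2. Of its 10 genes, 9 were higher in pool 2 and 4 were detected, a share near the 40.5% of all genes. The 4 included Klf1 at 2.61 RPKM in pool 1 and 6.11 RPKM in pool 2 and Gata1 at 7.42 and 7.09 RPKM. The 5 megakaryocyte genes of the list, named after their values were seen, were all higher in pool 2, by 1.13-fold for Gp1ba, 1.22-fold for Ppbp, 2.68-fold for Pf4 and 2.75-fold for Itga2b, with Gp9 at 0.0610 RPKM in pool 1 and 1.8 RPKM in pool 2. Each was under 1 RPKM in pool 1, and no counting intervals were made for them. The pool 1 value of Gp9 lay under the 0.148 RPKM that 3 reads on 1 kb of exon correspond to. Gfi1b was 2.64-fold higher in pool 2. The part of these cells in the level of Gfi1b was not tested.

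The neutrophil and granulocyte precursor list, a lineage that depends on Gfi1, was higher in pool 2 for 10 of 10 genes, 9 of them by at least 1.5-fold. Its summed level was 999 RPKM in pool 1 and 2380 RPKM in pool 2, led by S100a9 at 324 and 842 RPKM, S100a8 at 288 and 755 RPKM and Ngp at 121 and 291 RPKM. Cebpe, which encodes a granulocyte factor, was lowest, at 1.92 RPKM in pool 1 and 5.95 RPKM in pool 2. Gfi1 itself was 1.37-fold higher in pool 2, and the part of these cells in that difference was not tested.

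For Ikzf3, the B and plasma cell list was set beside it. Of its 10 genes, 8 were higher in pool 2, and its summed level was 59.1 RPKM in pool 1 and 77.7 RPKM in pool 2. Cd79b was at 33.5 RPKM in pool 1 and 47.8 RPKM in pool 2, Sdc1 at 9.92 and 18.3 RPKM and Cd79a at 1.12 and 2.39 RPKM. The B cell genes Pax5, at 0.123 RPKM in pool 1 and 5.09 RPKM in pool 2, and Ms4a1, at 0.0721 and 0.882 RPKM, were farther apart (both named after their values were seen). The B cell factor gene Ebf1 was lowest, at 0.0220 RPKM in pool 1 and 0.157 RPKM in pool 2, and Igj, the joining chain gene of plasma cells, went the other way at 13.2 and 0.672 RPKM. The ILC1 and NK list summed to 30.6 RPKM in pool 1 and 55.4 RPKM in pool 2, with 6 of 8 genes higher in pool 2, Nkg7 at 15.4 and 30.4 RPKM and Eomes lowest at 0.0799 and 0.0543 RPKM. The part of these cells in the difference of Ikzf3 was not tested.

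Regulatory T cell genes were set beside Ikzf2 and Ikzf4. Of 6 listed genes, 5 were detected, beside 40.5% of all genes, and the sums were 284 RPKM in pool 1 and 320 RPKM in pool 2. The T cell receptor constant region Trac was at 158 RPKM in pool 1 and 166 RPKM in pool 2, Cd3e at 45.8 and 78.3 RPKM and Cd4 at 27.7 and 33.5 RPKM. Of the 5, 3 were higher in pool 2 and 2 in pool 1. Cd3e, 1.71-fold higher in pool 2, was at least 1.5-fold apart, as were 5.86% of all detected genes in that direction. Foxp3, at 32.5 RPKM in pool 1 and 27.0 RPKM in pool 2, was 1.21-fold higher in pool 1, beside 1.29-fold for Ikzf2 and 1.43-fold for Ikzf4. Ctla4 (named after its values were seen) was also higher in pool 1, at 18.5 RPKM against 14.3 RPKM in pool 2. Il10 was lowest, at 1.21 RPKM in pool 1 and 0.772 RPKM in pool 2. Whether Ikzf2 and Ikzf4 transcripts came from such cells was not tested.

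Mast cell, basophil and eosinophil genes summed to 146 RPKM in pool 1 and 619 RPKM in pool 2, with 7 of 10 genes higher in pool 2. The eosinophil granule genes Prg2, at 27.2 RPKM in pool 1 and 471 RPKM in pool 2, and Epx, at 1.03 and 33.3 RPKM, were farthest apart. The basophil and mast cell genes were split. Prss34, at 42.5 RPKM in pool 1 and 33.0 RPKM in pool 2, Mcpt8, at 26.7 and 16.6 RPKM, and Fcer1a, at 2.99 and 1.33 RPKM, were higher in pool 1. Cpa3, at 37.4 RPKM in pool 1 and 50.2 RPKM in pool 2, and Hdc, at 1.79 and 3.84 RPKM, were higher in pool 2. So was Ms4a2, at 0.833 and 1.75 RPKM (named after its values were seen). Gata2, the lowest by mean of the 10, was at 0.915 RPKM in pool 1 and 1.48 RPKM in pool 2. The stem and multipotent progenitor list summed to 69.0 RPKM in pool 1 and 95.8 RPKM in pool 2, with 8 of 9 genes higher in pool 2. Hlf led it at 51.2 RPKM in pool 1 and 59.3 RPKM in pool 2, and Kit was at 11.1 and 22.0 RPKM.

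**Figure D5:**
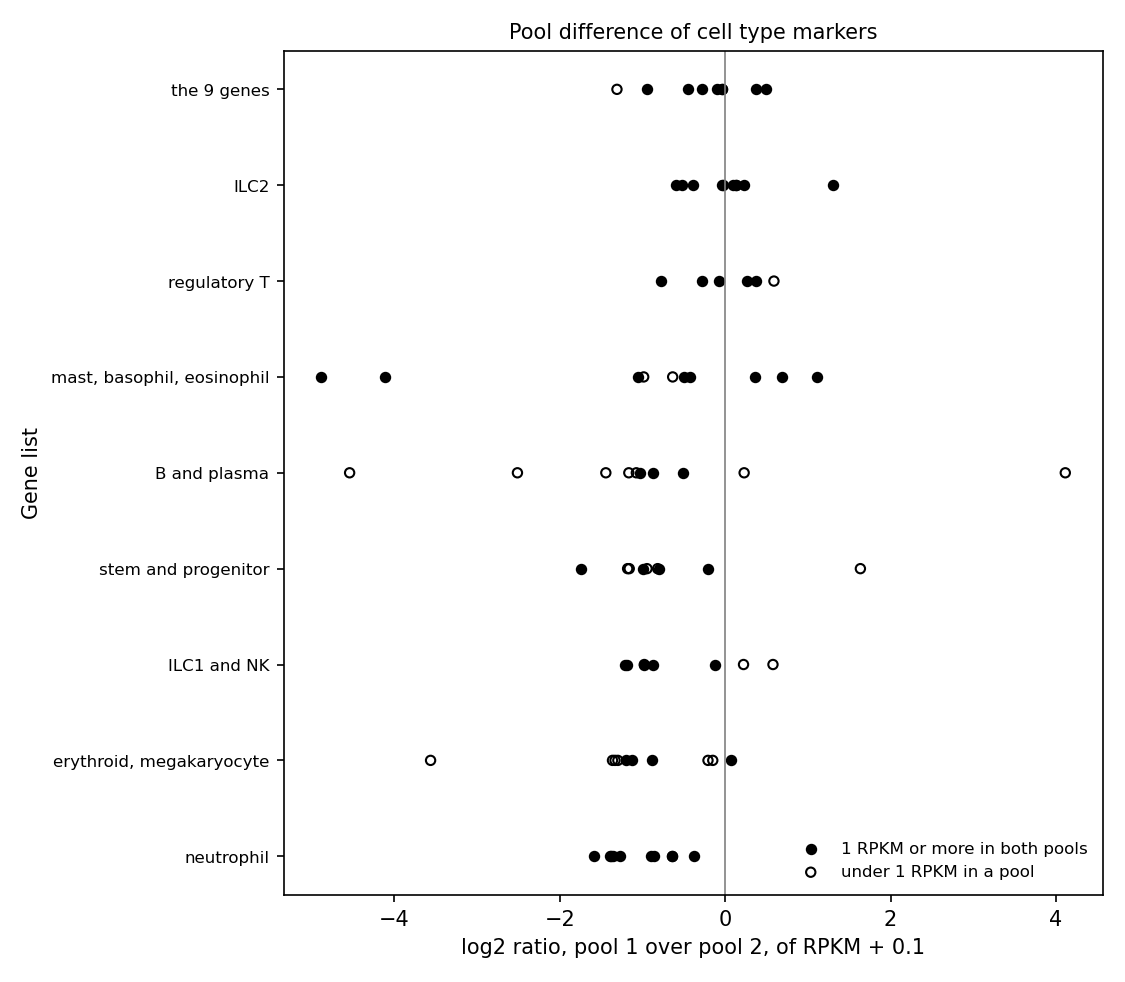
Log2 ratio, pool 1 over pool 2, of RPKM plus 0.1 for each gene of 9 lists; filled points are genes at 1 RPKM or more in both pools, open points the others. All 10 neutrophil genes lie left of 0, toward pool 2, while the 10 ILC2 markers lie on both sides (5 each way). Of these markers, Id2 and Il1rl1 were at least 1.5-fold apart.

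With 2 libraries of 1 group, likeness between genes reflects level alone. By distance over log2(RPKM + 0.1) in the 2 pools, the genes nearest to Ikzf1 were Gm4956 (0.0276), the respiratory chain gene Ndufb9 (0.0279) and Trac (0.0298). Those nearest to Gfi1 were Blmh (0.00394), the glycosylation enzyme gene Mgat1 (0.0347) and Cript (0.0370).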

How the data were processed

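Per the labels' protocols, both libraries of ILC2 progenitors, with 8 mice pooled for each, were prepared from 100 ng of total RNA. The authors deposited RPKM values for 27179 genes per library. Per the submitters' processing notes, CASAVA 1.8.2, featureCounts, edgeR 3.8.2, edgeR 3.22.0 and the mm10 build were used, with no role given; which aligner was used, and whether counting used strand, is not given.

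Whole reads were recovered from the RPKM steps: with totals of 20216146 and 19834586, lengths tried from 20 to 130000 bases yielded whole reads in each pool for 17233 of 17233 genes above 0, within a relative tolerance of 1e-09. The share was 13.1% of 1000 genes when the totals were shifted by 1 part in 1000. A multiple of a length also gives whole reads, so totals and lengths were set by RefSeq exon lengths in GENCODE M21: with these totals 54.1% of 800 genes had a length within 5% of the annotated one, against 31.8% with totals 2 times as large and 14.2% with the next smaller. The fitted lengths of 7 members lay within 10% of these. Those of Ikzf3 (4098 against 3658 bases) and Ikzf4 (3580 against 5150 bases) did not, and their reads are lower bounds. Read ratios have exact Clopper-Pearson intervals given the sum. Recovery up to a common factor of length and reads, and the intervals, were tested on simulated data. The simulation used the recovered lengths and totals, so it cannot tell which multiple is right.

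Log2 values used RPKM + 0.1. Since there is 1 group, no test between groups was made, and p-values are not given. The labels do not say how the pools were otherwise separate. All 9 members are described; from each of 15 other lists the text names the 3 highest, the lowest and members 1.5-fold apart, and it marks others; some genes that this takes are counted but not reported here by name. Members and lists were chosen with earlier results of these data known. Jchain was matched by gene ID to Igj. Promoters came from RefSeq (GRCm38.p6), with 6 of 9 members matched. Python 3.11.15, numpy 2.4.6, pandas 2.3.3, scipy 1.17.1 and matplotlib 3.10.9 were used. Alternatives were pseudocounts, detection thresholds, TPM, median scaling, reads without length and each pool alone.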

Additional observations from a re-analysis of the deposited data

How the results depend on the processing

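The order of the 9 levels was the same in each pool alone, and in reads without length Ikzf2 moved above Rcor1 and Kdm1a in both pools and above Gfi1 in pool 1. Pseudocounts and TPM cannot change the order, and TPM raised every level by 1.01 to 1.06 on the log2 scale. Of 9 genes, 8 were detected, with a range of 8 to 9 when either pool was left out. The count of members at least 1.5-fold apart was 1, and 2 with no filter on low values, where Gfi1b joins. Over all genes that count was 931, 3592 with no filter and 388 with a filter at 5 RPKM, where fewer genes were compared. In reads without length, the mean log2 ratios were 5.42 against 4.67 for Gfi1 to Gfi1b, 2.75 against 3.61 for Ikzf1 to Ikzf2, 6.17 against 5.59 for Ikzf1 to Ikzf4, 4.61 against 4.36 for Ikzf1 to Ikzf5 and 0.42 against 0.28 for Kdm1a to Rcor1; these values divide by no length and add no pseudocount. The 6.17 for Ikzf1 to Ikzf4 is an upper bound, because the reads of Ikzf4 are a lower bound. With a pseudocount of 1, Gfi1 to Gfi1b was 4.03. At 5 RPKM, 0 other SNAG repressors were detected (1 at 1 RPKM), and Ikaros targets numbered 8 at 0.5 RPKM and 2 at 5 RPKM, against 5. Each pool alone gave log2 ratios of 4.24 to 5.10 for Gfi1 to Gfi1b, 3.40 to 3.81 for Ikzf1 to Ikzf2, 0.24 to 1.14 for Ikzf1 to Ikzf3, 5.33 to 5.86 for Ikzf1 to Ikzf4, 4.24 to 4.48 for Ikzf1 to Ikzf5 and 0.25 to 0.30 for Kdm1a to Rcor1. The ratio of the pools cannot be formed with a pool left out. Scaling that sets the median ratio of detected genes to 0 moved ratios by 0.04 on the log2 scale and turned those of Ikzf1 to 0.0041 and Kdm1a to 3.6e-05, which split the detected members into 4 toward either pool. The median ratio of the members was tried under alternatives chosen after seeing the data. No paired analysis was possible because both libraries belong to 1 group.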

Other observations

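Other motif cores were searched on both strands in the 8 promoter windows of the 6 members with an entry. TGGGAA, a longer form of the Ikaros core GGGAA, was in 0 of the 8 windows, against 25.56% of all windows of this length. GGGAA itself was not counted, and the Gfi1b window printed above holds it. The GATA core GATAA was in the Gfi1b window only (1 match), against 25.41% of all windows. The AATC core was also present once in the Kdm1a window and at 2 positions in the window of the downstream Ikzf1 start, and in 0 of the windows of Rcor1, Ikzf5 and the upstream Ikzf1 start. Base composition differed widely, from 44.3% GC in the Gfi1b window to 81.3% in the upstream Ikzf1 window, with a median of 52.7% over all windows, and it bears on how often any of these letters occur.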
